A study of Mus musculus with 9 samples.

Results

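The genes described here encode 7 subunits of the GABA-A receptor, namely Gabra2, Gabra3, Gabra4, Gabra5, Gabrb1, Gabrb2 and Gabrd. They were picked by symbol as subunits of synaptic and of extrasynaptic receptors, and each matched 1 row among the 31804 genes of the count table. All 7 had enough reads to be among the 16438 genes tested. The other 12 GABA-A receptor subunit genes of the table, of which 6 were tested, serve only for comparison, and not all are described.

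GABA-A receptors are chloride channels that open when the inhibitory transmitter GABA binds. Each is a ring of subunits drawn from several families, usually alpha and beta subunits together with a gamma or a delta subunit. Receptors with the alpha2 or alpha3 subunit and a gamma subunit gather mainly at synapses and carry brief, phasic inhibition. Receptors with the alpha4 or alpha5 subunit or with delta lie largely outside synapses and carry tonic inhibition. In the hippocampus, alpha5 is known from pyramidal cell dendrites, and alpha4 with delta from dentate granule cells.

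The data are polyA RNA-seq libraries from the dorsal hippocampus of male mice of the inbred strain C57BL/6NCrl. Each mouse received, by stereotaxic injection at 8 weeks of age, a recombinant adeno-associated virus expressing a short hairpin RNA (shRNA), and brain tissue was collected after a further 3 weeks. The 3 groups were shRNA A against Camta1, shRNA B against Camta1, and a control shRNA without a target, with 3 animals in each. Camta1 encodes a calmodulin-binding transcription activator, and the series asks which genes depend on it. All groups therefore carried the virus, and in all of them the dissected region was the one showing mCherry, the red protein that marks infection. Cells that the virus did not enter are part of such a piece of tissue, and the share of infected cells was not analysed here.

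The 9 libraries held 29123744 to 38189288 counted reads, and the 7 subunit genes 628 to 8525 reads per library. Levels are given as CPM, the reads of a gene scaled to the size of its library. Camta1 itself was at 230.5, 174 and 254 CPM in the shRNA A libraries and at 238.5, 146 and 266 CPM in the shRNA B libraries, against 427, 455 and 442 CPM in control. It was lower in all 6 knockdown libraries, with a log2 fold change of -1.01 ± 0.22 (SE) under shRNA A and -1.02 ± 0.22 under shRNA B. The adjusted p over all genes was 0.388 and 0.0776 in edgeR's quasi-likelihood test and 0.0152 and 0.00174 in DESeq2, and the exact two-sided permutation p of the 6 knockdown libraries against control was 0.0119, the smallest that 6 against 3 libraries allow. Markers of dentate granule cells summed to 583 to 1035 CPM, of CA1 pyramidal cells to 596 to 1140 CPM and of CA2 and CA3 pyramidal cells to 1173 to 1675 CPM across the 9 libraries, and none of these markers was at 0 in any library. Libraries that stood apart were control 3, where the choroid plexus gene Ttr reached 935 CPM against 1.41 to 16.2 CPM in the other 8, and shRNA B 3, whose dentate granule marker score was the lowest. Control 1 was the highest in the meningeal marker score. In shRNA B 1 and shRNA B 2 the interneuron and CA1 marker scores were the lowest.

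The genes lie on 5 chromosomes, each of which also holds other subunit genes. Gabra2, Gabra4 and Gabrb1 share chromosome 5 with Gabrg1. Gabra5 is on chromosome 7 with Gabrg3, Gabrb2 on chromosome 11, Gabrd on chromosome 4, and Gabra3 on the X chromosome. In the GENCODE annotation used for gene lengths, Gabra4 and Gabrb1 run in opposite directions and share 46 exonic bases, and Gabra5 shares 148 with the antisense gene Gm9962. Since the libraries did not keep strand, reads from these stretches cannot be assigned to a partner by strand. The annotation behind the counts is not given, and how such reads were counted was not examined. No exonic overlap was found for Gabra2, Gabra3, Gabrb2 or Gabrd.

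Promoter sequences are shown for the chromosome 5 genes, because the start sites of Gabra4 and Gabrb1 face each other and because Gabra2 had the smallest p of the members. They are RefSeq windows of build GRCm38.p6, from 250 bases before a start site to 50 after it, in which capitals mark CGCG. CGCG is the core of the sequence bound by plant CAMTA proteins; it is its own reverse complement, so both strands are searched at once. The windows are chr5:71095800-71096099 on the minus strand for Gabra2, chr5:71658259-71658558 on the minus strand for Gabra4 and chr5:71657671-71657970 on the plus strand for Gabrb1.
Gabra2: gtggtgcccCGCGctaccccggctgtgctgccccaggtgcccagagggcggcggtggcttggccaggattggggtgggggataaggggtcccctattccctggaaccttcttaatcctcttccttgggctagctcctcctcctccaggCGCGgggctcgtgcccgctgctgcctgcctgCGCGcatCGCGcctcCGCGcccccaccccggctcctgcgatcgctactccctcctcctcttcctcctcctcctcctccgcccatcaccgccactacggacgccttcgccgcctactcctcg
Gabra4: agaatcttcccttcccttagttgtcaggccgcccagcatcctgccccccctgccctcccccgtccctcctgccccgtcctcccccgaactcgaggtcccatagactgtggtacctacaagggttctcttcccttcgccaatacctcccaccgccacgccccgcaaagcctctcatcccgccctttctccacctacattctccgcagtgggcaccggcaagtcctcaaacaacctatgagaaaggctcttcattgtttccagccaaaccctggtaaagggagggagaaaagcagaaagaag
Gabrb1: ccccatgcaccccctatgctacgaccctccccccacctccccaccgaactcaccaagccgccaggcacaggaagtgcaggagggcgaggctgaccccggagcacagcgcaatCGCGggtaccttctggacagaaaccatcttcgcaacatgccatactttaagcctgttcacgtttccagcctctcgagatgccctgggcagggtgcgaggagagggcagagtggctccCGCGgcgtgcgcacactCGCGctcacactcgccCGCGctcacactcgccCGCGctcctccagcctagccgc
The windows of Gabra2 and Gabrb1 hold 5 matches each and that of Gabra4 holds 0. The Gabra4 start lies 387 bases from this Gabrb1 start. RefSeq windows were found for 6 of the 7 members, all but Gabrd. Of their 10 windows 3 hold the motif, which belong to Gabra2 and Gabrb1, beside 38% of the 32851 mouse promoter windows in the table. A match is a string of letters in the window and not a binding site.

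The alpha5 transcript was the most abundant member per length. Levels of different genes are compared as CPM per kilobase of exon, and fold changes are not affected by this scale. Gabra5 stood at 64.7 ± 5.06 with shRNA A, 61.3 ± 1.28 with shRNA B and 65.8 ± 6.87 CPM per kilobase in control (SD, n = 3 each). Gabrb2, a beta subunit gene, followed at 37.8 ± 4.02, 34.4 ± 0.246 and 38.5 ± 1.86 CPM per kilobase in the same order of groups. The other 5 members were lower in every group.

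Gabra4 had 16.0 ± 1.60 CPM per kilobase with shRNA A, 15.2 ± 1.25 with shRNA B and 17.0 ± 1.11 in control, and Gabra2 had 14.3 ± 1.70, 12.9 ± 1.29 and 16.4 ± 1.11. The ranges of these 2 genes overlapped with shRNA A and in control and were apart with shRNA B, where Gabra4 was the higher in every library. Gabrd had 9.69 ± 0.583 CPM per kilobase with shRNA A, 9.16 ± 1.58 with shRNA B and 9.60 ± 1.54 in control, and Gabra3 had 8.97 ± 0.593, 6.60 ± 2.29 and 8.82 ± 2.04. Their ranges overlapped in all 3 groups, so no order between delta and alpha3 was resolved. Gabrb1 was the lowest member, with 3.65 ± 0.293 with shRNA A, 3.56 ± 0.300 with shRNA B and 3.69 ± 0.254 CPM per kilobase in control. The order of the 7 means was the same in the 3 groups, and the same when the length of the longest transcript was used. That length hardly differs for Gabrb1, at 13737 against 13838 bases, so its rank was barely tested. In mean CPM, without division by length, Gabrb2 was above Gabra5 in every group, and Gabrb1 above Gabra3 and Gabrd.

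In control libraries the subunit genes Gabrg1 at 1.81 ± 0.355, Gabrg3 at 0.428 ± 0.0236 and Gabrr2 at 0.347 ± 0.102 CPM per kilobase were below all members. Gabra6, Gabrp, Gabre, Gabrq, Gabrr1 and Gabrr3 had at most 18 reads in any library and were not tested.

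**Figure D1:**
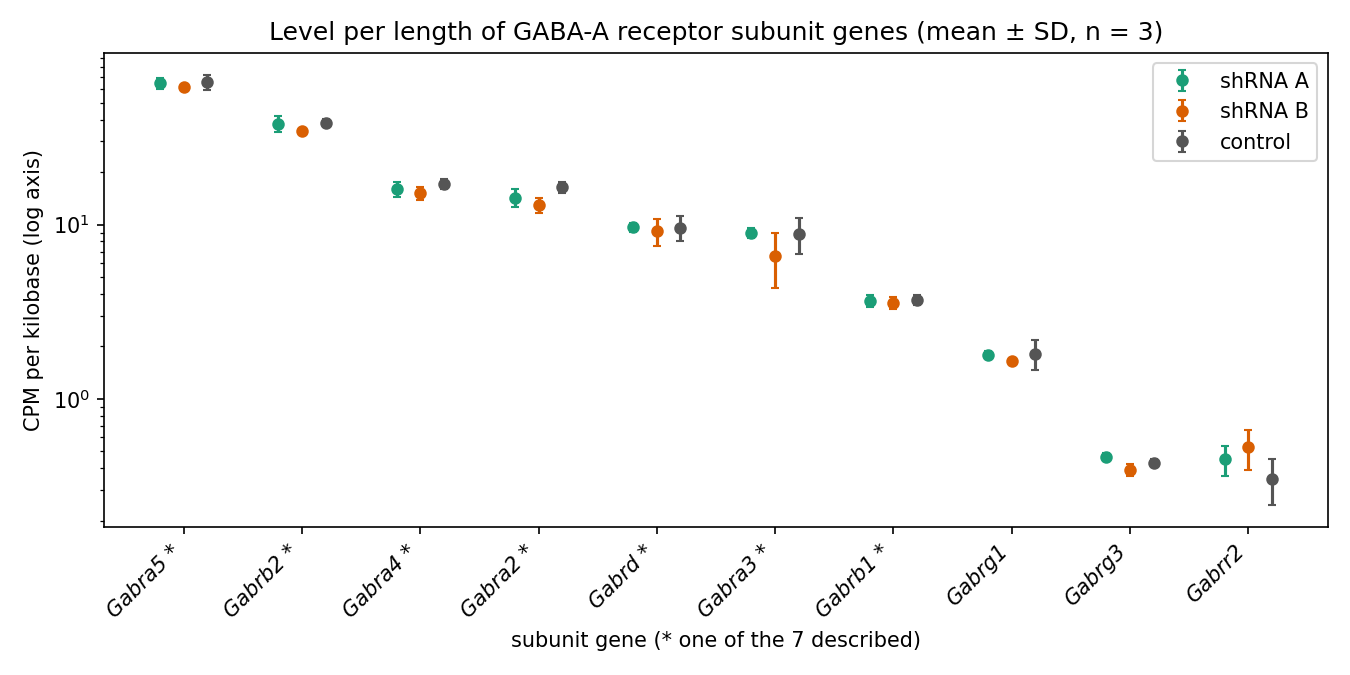
Level per length of the 7 members and of Gabrg1, Gabrg3 and Gabrr2, as mean CPM per kilobase of exon with SD over 3 libraries, on a log axis, for shRNA A, shRNA B and control; asterisks mark the 7 members. Among the members Gabra5 is highest and Gabrb1 lowest in every group.

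With shRNA B all 7 members had a lower fitted level than in control and none passed the test, and with shRNA A 5 were lower, 2 were higher and none passed. A gene counted as changed at an adjusted p under 0.05 in edgeR's quasi-likelihood test, adjusted by the Benjamini-Hochberg method over all genes tested. By that rule 0.0243% of all genes were called for shRNA A, 1.02% for shRNA B and 0.0973% for the mean of both shRNAs against control. A negative fold change was found for 49.9% of all genes with shRNA A, 49.7% with shRNA B and 49.5% for the mean of both, where the members' count was also 7 of 7. The members share libraries and the 2 comparisons share the control animals, so these counts of signs are a description. The members' median log2 fold change was -0.02 for shRNA A and -0.16 for shRNA B, where the median of all genes was 0.00 in each. At an unadjusted p under 0.05, 0 of the 7 were reached with shRNA A, beside 6.9% of all genes. Gabra2 alone, 1 of the 7, was reached with shRNA B, beside 12.8% of all genes, and for the mean of both, beside 10.4%. Some markers of other cell types rose with shRNA B. Of 10 microglial markers, 4 rose with shRNA B (C1qa, C1qb and C1qc, which encode a complement component, and Ctss, a lysosomal protease), with a list median of 0.42 on the log2 scale. They summed to 584 to 662 CPM under shRNA A and 670 to 751 CPM under shRNA B, against 546 to 581 CPM in control. Of 10 astrocyte markers, Aldh1l1 alone was called with shRNA B, at 0.47 ± 0.070 (SE; edgeR adjusted p = 0.0137). The astrocyte list moved in both directions, as 6 of the 10 were lower and 4 higher with shRNA B, and its median was -0.01. Its fold changes ran from -0.48 for Gja1 to 0.64 for Gfap on the log2 scale, and neither gene was called. Gfap was at 745, 958 and 653 CPM under shRNA B, against 434, 537 and 539 CPM in control. Of 14 pan-neuronal markers none was called with either shRNA, 13 were lower with each, and the list median was -0.10 for shRNA A and -0.12 for shRNA B. No marker of these lists was at 0 in any library, and their part in the members' values was not tested. In tissue RNA, fewer cells of a type and less RNA per cell cannot be told apart.

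**Figure D2:**
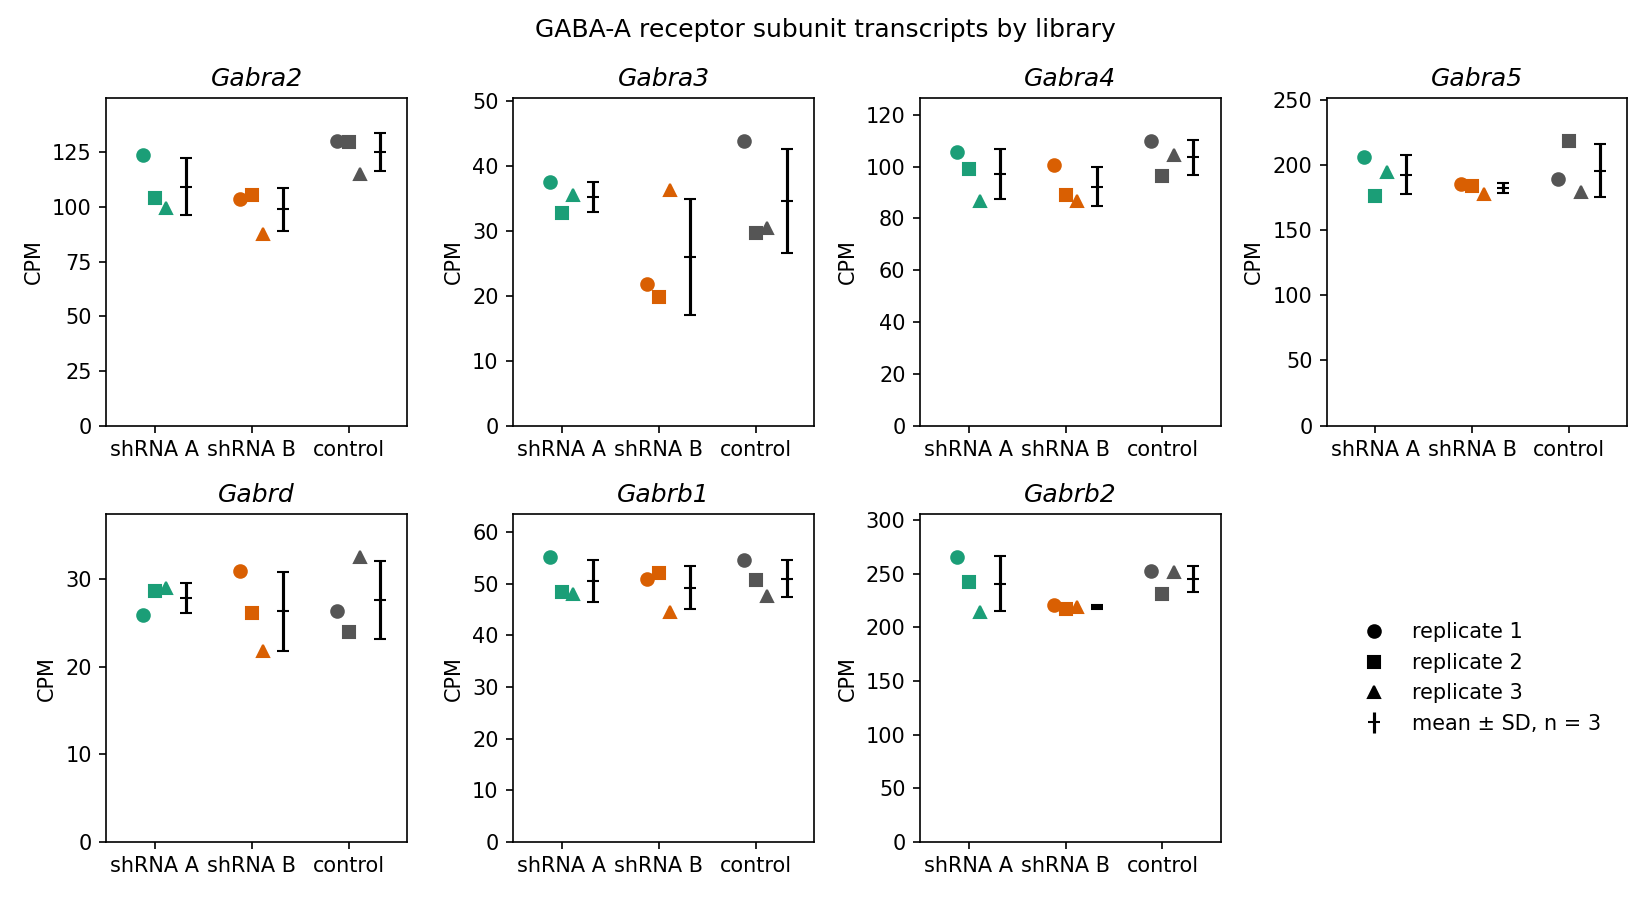
CPM of each of the 7 subunit genes in the 9 libraries, by shRNA A, shRNA B and control; symbols give the replicate, and the bar is the mean ± SD of 3 libraries. Gabra2 is below every control library in all 3 shRNA B libraries, and Gabra3 is low in shRNA B 1 and 2 only.

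Gabra2 encodes the alpha2 subunit, a synaptic subunit known from synapses on pyramidal cell bodies and at the start of their axons. Its level was 124, 104 and 99.6 CPM under shRNA A, and 104, 105 and 87.5 CPM under shRNA B, against 130.2, 129.7 and 115 CPM in control. Every shRNA B library lay below every control library, while the highest shRNA A library lay within the control range. The log2 fold change with shRNA B was -0.34 ± 0.097 (SE; 95% interval -0.55 to -0.13), a level 20.9% lower, with an unadjusted p of 0.00424 and an adjusted p of 0.148 in edgeR. The exact two-sided permutation p was 0.1, the smallest that 3 against 3 libraries allow. DESeq2 gave the same fold change, -0.34, with an adjusted p of 0.0489, so the call depended on the tool, and over the 17 alternatives run the adjusted p ranged from 0.0489 to 0.394. In the authors' deposited table, Gabra2 had a log2 fold change of -0.34 with shRNA B and an adjusted p of 0.125 for its test over the groups.

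With shRNA A the log2 fold change of Gabra2 was -0.19 (95% interval -0.40 to 0.01; edgeR adjusted p = 0.741). The direct difference, shRNA B minus shRNA A, was -0.14 (95% interval -0.35 to 0.07; edgeR adjusted p = 0.694), so a difference between the hairpins was not resolved. For the mean of both shRNAs it was -0.27 (95% interval -0.45 to -0.09), with an edgeR adjusted p of 0.268 and an exact permutation p of 0.0595.

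Gabra3 encodes the alpha3 subunit, the other synaptic alpha subunit of the set, and was the member with the widest spread. Its level was 37.4, 32.8 and 35.5 CPM under shRNA A, and 21.8, 19.8 and 36.2 CPM under shRNA B, against 43.8, 29.6 and 30.5 CPM in control. The libraries shRNA B 1 and 2 lay below all the others, and shRNA B 3 lay within the control range. The coefficient of variation was 6.6% with shRNA A, 34.6% with shRNA B and 23.1% in control. The log2 fold change with shRNA B was -0.42 ± 0.24 (SE; 95% interval -0.97 to 0.13; edgeR adjusted p = 0.524), and with shRNA A 0.03 (95% interval -0.52 to 0.57; edgeR adjusted p = 0.988). Without shRNA B 3 the shRNA B value was -0.73 with an adjusted p of 0.0672, and without control 1 it was -0.21. The interval for shRNA B spans a level 48.8% lower to one 9.20% higher, which leaves its change imprecise in both directions.

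Gabra4 encodes the alpha4 subunit of extrasynaptic receptors, which classical benzodiazepines do not modulate. It had 106, 99.0 and 86.7 CPM under shRNA A, and 101, 89.2 and 86.6 CPM under shRNA B, against 110.0, 96.6 and 104 CPM in control. The groups overlapped, and the libraries under the lowest control one were 1 of shRNA A and 2 of shRNA B. Relative to control, its log2 fold change was -0.09 (95% interval -0.28 to 0.10; edgeR adjusted p = 0.856) for shRNA A and -0.17 (95% interval -0.36 to 0.02; edgeR adjusted p = 0.450) for shRNA B.

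Gabra5 encodes the alpha5 subunit, the main alpha subunit of tonic inhibition in pyramidal cells. It had 206, 176.5 and 194 CPM under shRNA A, and 185, 184 and 178 CPM under shRNA B, against 189, 219 and 179 CPM in control. The shRNA B libraries lay close together around the low end of the control range, and all 3 groups overlapped. Its log2 fold change was -0.02 (95% interval -0.20 to 0.16; edgeR adjusted p = 0.970) for shRNA A and -0.10 (95% interval -0.28 to 0.08; edgeR adjusted p = 0.671) for shRNA B. In percent, the shRNA B interval runs from 17.8% lower to 5.47% higher.

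Gabrd encodes the delta subunit, which takes the place of a gamma subunit in extrasynaptic receptors and makes them respond to low concentrations of GABA. It had 25.9, 28.7 and 29.0 CPM under shRNA A, and 30.9, 26.2 and 21.9 CPM under shRNA B, against 26.4, 23.9 and 32.5 CPM in control. The control range covered all shRNA A libraries, and the lowest library was shRNA B 3. Its log2 fold change was 0.01 (95% interval -0.28 to 0.31; edgeR adjusted p = 0.989) for shRNA A and -0.07 (95% interval -0.36 to 0.23; edgeR adjusted p = 0.891) for shRNA B, and the second value turned to 0.06 without control 3 and to 0.05 without shRNA B 3.

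Among the beta subunits, Gabrb2 had 265, 242 and 214 CPM under shRNA A, and 220.4, 217 and 219 CPM under shRNA B, against 252, 231 and 251 CPM in control. The 3 shRNA B libraries lay below all control libraries and agreed closely, with a coefficient of variation of 0.712%, while the shRNA A libraries lay on both sides of the control range. Against control the log2 fold change was -0.03 (95% interval -0.20 to 0.14; edgeR adjusted p = 0.965) for shRNA A and -0.16 (95% interval -0.33 to 0.01; edgeR adjusted p = 0.414) for shRNA B, where the exact permutation p was 0.1, the smallest possible. Gabra2 and Gabrb2 were thus the 2 of 7 members that were lower with shRNA B without overlap with control, beside 8.88% of all genes that were lower and 18.1% that differed in either direction. With shRNA A it was 0 of 7, beside 5.65% lower and 12.5% in either direction. For the 6 knockdown libraries together it was also 0 of 7, beside 2% lower and 4.5% in either direction.

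Gabrb1, the beta subunit gene next to Gabra4, had the fold change nearest 0 with shRNA B. It had 55.2, 48.4 and 48.0 CPM under shRNA A, and 51.0, 52.1 and 44.4 CPM under shRNA B, against 54.7, 50.6 and 47.7 CPM in control, and the groups overlapped throughout. Its fold change on the log2 scale was -0.01 (95% interval -0.19 to 0.17; edgeR adjusted p = 0.979) for shRNA A and -0.05 (95% interval -0.23 to 0.13; edgeR adjusted p = 0.858) for shRNA B. In percent these intervals run from 12.6% lower to 12.2% higher and from 14.8% lower to 9.32% higher.

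**Figure D3:**
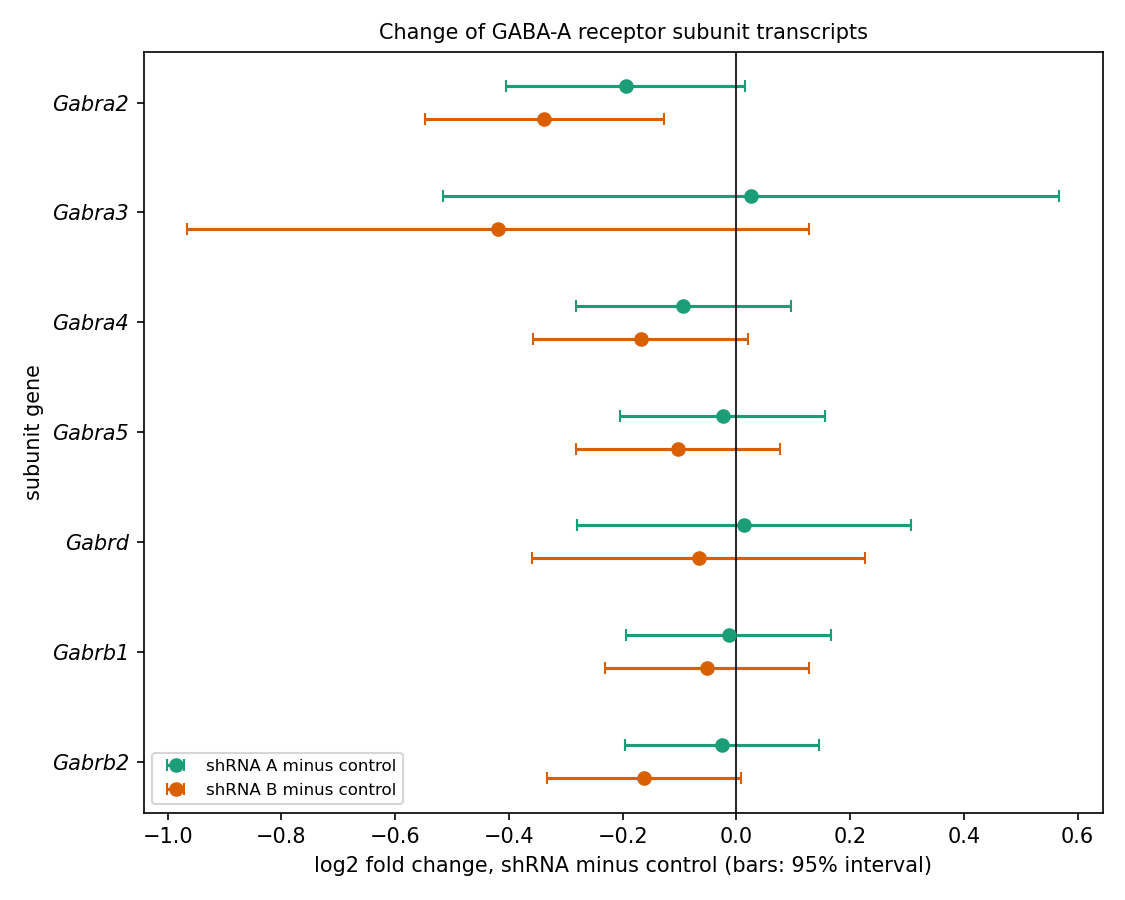
Log2 fold change of the 7 members, with 95% intervals from the edgeR fit, for shRNA A and shRNA B against control. Of the members' 14 intervals, that of Gabra2 with shRNA B alone, -0.55 to -0.13, leaves out 0.

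The comparison of the hairpins, shRNA B minus shRNA A, was negative for all 7 members, beside 49.5% of all genes, from -0.45 for Gabra3 (95% interval -0.99 to 0.10) to -0.04 for Gabrb1 (95% interval -0.22 to 0.14). The smallest edgeR adjusted p among the members was 0.626, and 0 of 7 were called, beside 0% of all genes in edgeR, where 1536 genes had an unadjusted p under 0.05, while DESeq2 called 123 genes and none of the members. No member reached an unadjusted p under 0.05, beside 9.34% of all genes, and none was lower without overlap, beside 6.95% lower and 14.2% in either direction. Across the members the half-width of the 95% interval for shRNA B minus control ran from 0.17 to 0.55 on the log2 scale, beside a median of 0.22 over all genes. The wide end belongs to Gabra3.

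The extrasynaptic and synaptic alpha and delta subunits were set against each other within each library, as the mean log2 CPM of Gabra4, Gabra5 and Gabrd minus that of Gabra2 and Gabra3. This balance was 0.28, 0.44 and 0.41 under shRNA A, and 0.81, 0.72 and 0.31 under shRNA B, against 0.12, 0.36 and 0.52 in control. The means were 0.38 ± 0.085, 0.61 ± 0.27 and 0.33 ± 0.20 in that order of groups (SD, n = 3 each). The values of shRNA B 1 and 2 stood above all others. These are also the libraries with low Gabra3, while shRNA B 3 fell within the control range. The difference was 0.04 for shRNA A minus control, within the spread between libraries, and 0.28 for shRNA B minus control, close to the SD of the shRNA B group. Leaving out 1 library gave -0.063 (without control 1) to 0.14 (without control 3) for shRNA A, and 0.17 (without control 1) to 0.43 (without shRNA B 3) for shRNA B. No p is given for this score.

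With Gabrd left out, shRNA B minus control was 0.26. As the log2 ratio of summed CPM per kilobase it was 0.25.

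**Figure D4:**
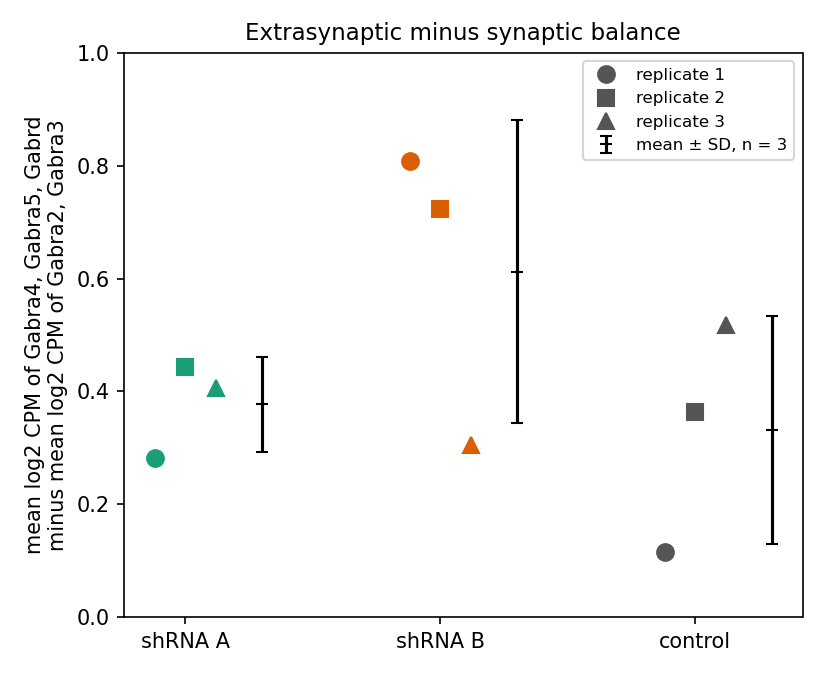
Mean log2 CPM of Gabra4, Gabra5 and Gabrd minus that of Gabra2 and Gabra3 in each of the 9 libraries, by shRNA A, shRNA B and control, with mean ± SD of 3 libraries. The libraries shRNA B 1 and 2, at 0.81 and 0.72, lie above the other 7.

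The members' levels were compared with marker scores of cell types. For the 7 members and 7 marker lists 49 relations were computed over the 9 libraries, and none had a Benjamini-Hochberg adjusted permutation p under 0.05, by Pearson or by Spearman. The mean log2 CPM of the 14 measured interneuron markers, relative to control, was -0.33 and -0.32 in shRNA B 1 and 2 and lay between -0.08 and 0.10 in the other 7 libraries. Against this score, Gabra3 had Pearson's r = 0.922 (permutation p = 0.00244, adjusted 0.0901) over the 9 libraries. Spearman's rho was 0.683 (permutation p = 0.0503, adjusted 0.493). The same 2 libraries were lowest in Gabra3, and over the other 7 libraries r was 0.61. After the group means were taken out r was 0.888. The relation therefore rests partly on those 2 libraries. The interneuron markers summed to 1103 to 1187 CPM with shRNA A and 897 to 1111 CPM with shRNA B, against 1040 to 1130 CPM in control, and none was at 0. The marker with the largest fold change was Calb2, the calretinin gene, at -1.56 ± 0.53 (SE) on the log2 scale with shRNA B (edgeR adjusted p = 0.290). Control 1, at 34.9 CPM of Calb2 against 8.47 and 12.3 CPM in the other control libraries, carried much of it, and without that library it was -0.72. The CA1 marker score was lowest in shRNA B 1 and 2 too, at -0.55 and -0.39 against -0.05 to 0.16 in the other 7. Its list holds Dcn, which is also in the meningeal list and had the largest CA1 fold change, -1.63 on the log2 scale with shRNA A. Dcn was at 21.3 CPM in control 1, 5.04 in shRNA B 1 and 2.64 in shRNA B 2, and its part in the score was not tested. With the CA1 score, Gabra3 had r = 0.876 (permutation p = 0.00677, adjusted 0.111) and rho = 0.833 (permutation p = 0.00827, adjusted 0.405). Over the other 7 libraries that r was 0.44. The part of the interneuron and CA1 markers in the Gabra3 values was not tested.

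Against the score of the 12 dentate granule markers, Gabrd had Pearson's r = 0.845 (permutation p = 0.00368, adjusted 0.0901) and Spearman's rho = 0.70 (permutation p = 0.0433, adjusted 0.493) over 9 libraries. Without control 3 and shRNA B 3, the libraries farthest from the median score, r was 0.52, and after the group means were taken out it was 0.88. The relation therefore rests partly on those 2 libraries. The dentate markers summed to 755 to 867 CPM with shRNA A and 583 to 955 CPM with shRNA B, against 781 to 1035 CPM in control, and none was at 0. The largest fold change among them was that of Tdo2, -0.48 ± 0.17 (SE) with shRNA B (edgeR adjusted p = 0.272). Their part in the Gabrd values was not tested. For Gabrb1 and the 10 oligodendrocyte markers the values were r = -0.766 (permutation p = 0.0168, adjusted 0.205), rho = -0.70 (permutation p = 0.0433, adjusted 0.493) and r = -0.704 without control 1 and shRNA B 2. For Gabra2 and the same markers they were r = -0.659 (permutation p = 0.0562, adjusted 0.455) and rho = -0.75 (permutation p = 0.0255, adjusted 0.493). Without the same 2 libraries that r was -0.847. Gabra5 and the pan-neuronal markers had r = 0.679 (permutation p = 0.048, adjusted 0.455), and 0.20 without control 2 and shRNA B 2. The part of these markers in the members' values was not tested.

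**Figure D5:**
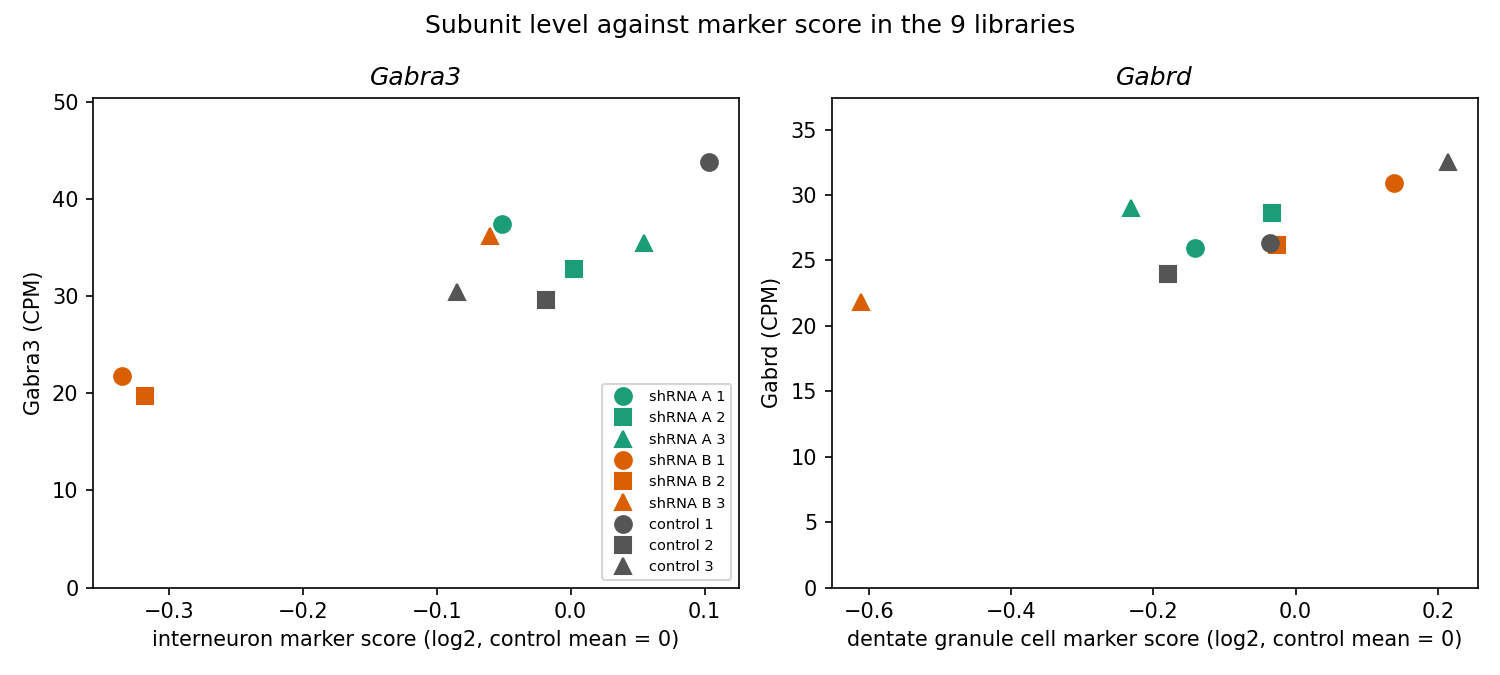
CPM of Gabra3 against the interneuron marker score, left, and of Gabrd against the dentate granule cell marker score, right, in the 9 libraries of shRNA A, shRNA B and control; scores are mean log2 CPM relative to control. The libraries shRNA B 1 and 2 stand apart on the left at scores of -0.33 and -0.32, and shRNA B 3 on the right at -0.61.

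The genes whose level was most like each member across the 9 libraries were sought among the 13390 named genes averaging 1 CPM or more, by Pearson's r of log2 CPM, as a description. For Gabra2 they were Proz (r = 0.970), Bet1l (0.960) and Slc30a1 (0.944). For Gabra3 they were Btbd11 (0.967), Efnb2 (0.963) and Ndufaf2 (0.960). Gabra4 was most like Matr3 (0.987), Ttc33 (0.980) and Capn7 (0.978), the highest values for any member. Gabra5 had the loosest neighbours, Asns (0.903), Pcdha1 (0.899) and the activity-regulated gene Arc (0.886). Gabrb1 was most like Elp4 (0.928), Mex3c (0.914) and Appbp2 (0.908), and Gabrb2 like Zc2hc1a (0.968), 4933411K20Rik (0.966) and Adam22 (0.964). Gabrd was most like Gm10129 (0.929), Lman1 (0.906) and 2810025M15Rik (0.902). No member was among another's 3, and none of these 21 genes was called with either shRNA.

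Of the 6 other subunit genes tested, 0 were called. With shRNA A 2 of them were negative, with a median log2 fold change of 0.08, and with shRNA B 5 were negative, with a median of -0.12 beside the members' -0.16. With shRNA B, Gabrg1 and Gabrg3, which encode gamma subunits, averaged 12.9 ± 0.561 and 4.68 ± 0.382 CPM, against 14.2 ± 2.80 and 5.10 ± 0.282 CPM in control (SD, n = 3 each). Gabrr2, a rho subunit gene, averaged 0.948 ± 0.186 CPM under shRNA A and 1.11 ± 0.284 CPM under shRNA B, against 0.730 ± 0.215 CPM in control (SD, n = 3 each), with a log2 fold change with shRNA B of 0.60 (95% interval -0.02 to 1.22; edgeR adjusted p = 0.402).

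Genes around the receptor were mostly uncalled as well. Of 8 genes for GABA synthesis, transport and breakdown, 1 fell with shRNA B, beside the 1.02% of all genes called. It was Slc6a13, a GABA transporter known from the meninges, with 3.96 ± 0.308 CPM with shRNA A and 2.76 ± 0.596 CPM with shRNA B, against 5.49 ± 1.36 CPM in control (SD, n = 3 each). Its log2 fold change was -0.98 ± 0.19 (SE; edgeR adjusted p = 0.0376) with shRNA B and -0.47 (edgeR adjusted p = 0.705) with shRNA A. It was called with shRNA B in 7 of 17 alternatives, with adjusted p-values from 0.000708 to 0.145, the highest without control 1, where the fold change was -0.76. The 8 meningeal markers, of which Slc6a13 is one, summed to 55.8 to 67.1 CPM with shRNA A and 55.6 to 62.8 CPM with shRNA B, against 68.5 to 125 CPM in control, and none was at 0. The one with the largest fold change was Dcn, at -1.63 ± 0.77 (SE) with shRNA A (edgeR adjusted p = 0.742). In control 1 Dcn was at 21.3 CPM, against 2.96 and 5.51 CPM in the other control libraries, and without control 1 the value was -0.41. The part of the meninges in the Slc6a13 value was not tested. Gad2, which makes GABA, had a log2 fold change of -0.12 with shRNA B (edgeR adjusted p = 0.498).

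Of the 13 tested genes of the inhibitory postsynapse, the 15 for receptor trafficking, the 4 for GABA-B receptors and the 5 for chloride transport, none was called with either shRNA. With shRNA B, the log2 fold change was -0.26 for Dmd, the dystrophin gene, and 0.11 for Igsf9b, an adhesion molecule of inhibitory synapses. Among trafficking genes it was -0.38 for Hap1, which links receptors to kinesin transport, 0.27 for Plcl1, which binds the receptor and its partner GABARAP, and 0.09 for Gabarap itself. For the GABA-B receptor it was -0.02 for the subunit Gabbr1, and -0.12 and -0.06 for the auxiliary subunits Kctd8 and Kctd16; with shRNA A Kctd8 stood at 0.54 (edgeR adjusted p = 0.596). Wnk3, a kinase upstream of chloride cotransporters, stood at -0.26, and its downstream kinases Oxsr1 at 0.24 and Stk39 at -0.03. The smallest edgeR adjusted p among these 11 genes with shRNA B was 0.188.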

How the data were processed

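Per the labels' protocols, libraries without strand information were made from polyA RNA. Per the submitters' processing notes, the tools were HTSeq 0.6.1, TopHat 1.4.1, SAMtools 0.1.19, R 3.1.1 and DESeq2 1.4.5, and the genome build was mm9, with the gene annotation not given in the sources used here. The authors deposited 1 table of whole-number counts per gene for the 9 libraries, and all sample columns were matched to their labels by name. The same table holds the authors' own DESeq2 results, per the file headers: per gene a signal (the mean of normalized counts), log2 fold changes with standard errors, a score (the test statistic), and p-values with adjusted p-values. These were used only where the text names the authors' deposited table.

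Counts were analysed in R 4.3.3. Genes with few reads were removed with filterByExpr of edgeR 4.0.16, libraries were scaled by TMM, and 1 quasi-likelihood model (robust) was fitted over the 9 libraries and 16438 genes, with p-values adjusted by Benjamini-Hochberg at 0.05. The 3 groups share 1 estimate of the spread, and the common biological coefficient of variation was 9.45%. CPM are counts scaled to the TMM-adjusted library size; log2 CPM has a prior count of 2. Single genes were also tested by exact two-sided permutation of log2 CPM. Lengths are GENCODE exons matched by gene ID. Depth was 29123744 to 38189288 counts per library.

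Genes named are the 7 members, Camta1, the other subunits, called genes and the 3 of smallest p in the mean of both shRNAs of each pathway list, the 3 nearest genes of each member, and the marker of largest fold change of a list set beside a result. Some genes that this rule names are not reported here. The members and lists were chosen with earlier results of these data known. Alternatives were other scalings, no count filter, robust estimation off, a replicate block, DESeq2 1.42.0, limma 3.58.1 (voom), the compared groups alone, and leaving out each library.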

Additional observations from a re-analysis of the deposited data

How the results depend on the processing

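Of 469 refits of the members' fold changes, 442 kept direction and call, 26 changed sign and 1 gained a call. The gained call was Gabra2 with shRNA B in DESeq2 (-0.34, adjusted p 0.0489). All 26 sign changes came from leaving out 1 library, in uncalled values near 0. Over those refits, shRNA A minus control ranged from -0.079 to 0.23 for Gabra3, -0.088 to 0.060 for Gabra5, -0.082 to 0.039 for Gabrb1, -0.10 to 0.052 for Gabrb2 and -0.083 to 0.14 for Gabrd. shRNA B minus control ranged from -0.10 to 0.017 for Gabrb1 and -0.20 to 0.065 for Gabrd. The mean of both minus control ranged from -0.35 to 0.0081 for Gabra3, -0.13 to 0.021 for Gabra5, -0.083 to 0.020 for Gabrb1 and -0.12 to 0.10 for Gabrd. shRNA B minus shRNA A ranged from -0.081 to 0.031 for Gabrb1, -0.22 to 0.037 for Gabrd and, outside the set, -0.19 to 0.20 for Camta1. With shRNA B, the ranges of Gabra2 (-0.40 to -0.26) and Gabrb2 (-0.20 to -0.14) stayed below 0.

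The number of genes called over all genes, which sets the background and not a member's value, moved more; the cause was not tested. For shRNA A the count was 4, against 9 without the count filter, 2 with robust estimation off, 43 in DESeq2, 0 in limma-voom and 18 with the compared groups alone. For shRNA B it was 167, against 386 in DESeq2, 95 in limma-voom and 42 with the compared groups alone. For the mean of both it was 16, against 67 without the filter and 243 in DESeq2, and for shRNA B minus shRNA A it was 0, against 21 and 123. Leaving out 1 library gave 0 to 10 for shRNA A, 13 (without control 1) to 217 (without shRNA B 1) for shRNA B, 1 (without control 1) to 52 (without shRNA B 1) for the mean, and 0 to 110 (without shRNA B 3) for shRNA B minus shRNA A. With the replicate number as a block, the mean contrast gave 31 calls and shRNA B minus shRNA A gave 1, and no member gained a call (Gabra2 with shRNA B, adjusted p 0.0586 under the block). Same-numbered libraries of different groups deviated with r from -0.13 to 0.27, over 0.1 in 2 of 9 pairs, so the numbers were not taken as pairs. The 3 animals a group limit precision, and exact permutation of 3 against 3 cannot go below 0.1.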
